A study of Mus musculus with 2 samples.

Results

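5hmC peaks on pseudogenes were examined in germ cells of the foetal mouse testis, the prospermatogonia. A member was an autosomal peak that overlapped, by at least 1 bp, the span of a gene typed as pseudogene or transcribed_pseudogene in the mm10 gene table, and overlapped no protein-coding or lncRNA gene span. The rule gave 1574 peaks of the 106034 on the 19 autosomes and of the 108395 in the whole list. They lay on 1267 of 9225 autosomal pseudogenes. Another 676 autosomal peaks overlapped a pseudogene but also a protein-coding or lncRNA gene and were not members.

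The cells were wild type (WT), from E17.5 embryos, and 30000 of them were pooled from several embryos. The data are 1 library of DNA captured by 5hmC-Seal, in which 5hmC receives a glucose and biotin and is pulled down on streptavidin, from 50 ng of sheared DNA. A library of the DNA before capture, from the same batch, was not analysed here. No replicate was present, the peak list holds no read counts, and the depth is unknown, so no test across samples was possible and every value describes this library. A list of DNA peaks gives no expression, so the identity of the cells could not be checked against marker genes.

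5-hydroxymethylcytosine is made from 5-methylcytosine by the TET enzymes, and prospermatogonia of this stage are gaining DNA methylation. Pseudogenes are copies of genes that have lost the ability to make the parent's protein. Processed pseudogenes are copies of spliced mRNA inserted into the genome by the LINE-1 machinery; they have no introns and are as short as the mRNA, and genes of ribosomal proteins are a well-known source of them. Other pseudogenes arise by duplication of a whole gene, keep its introns and often lie in clusters of receptor or enzyme genes.

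Sequence was at hand where a window of the RefSeq tables (build GRCm38.p6) fell inside a pseudogene peak, and these stretches are shown because they are the only bases of the peaks that could be read. The promoter table held 0 windows of the autosomal pseudogenes themselves. Member peaks reached into 3 promoter windows of neighbouring protein-coding genes and held 1 microRNA hairpin. The part of each window that lay in the peak and before the gene's start is given 5′ to 3′ on the gene's strand, with each CG dinucleotide, the site of most methylation in mammals, in capitals. The first, chr9:22187916-22188116 on the plus strand, precedes Zfp872, a zinc-finger gene, and lies under a peak of fold 6.17 that covers Rpl15-ps3.
Zfp872: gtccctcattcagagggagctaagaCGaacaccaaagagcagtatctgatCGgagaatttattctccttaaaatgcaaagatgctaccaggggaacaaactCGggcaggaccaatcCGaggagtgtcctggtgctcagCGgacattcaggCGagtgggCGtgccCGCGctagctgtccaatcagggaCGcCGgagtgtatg
The next, chr4:118489871-118490099 on the minus strand, precedes Tie1, a receptor gene of endothelium, under a peak of fold 2.75 that crosses an end of Gm12859.
Tie1: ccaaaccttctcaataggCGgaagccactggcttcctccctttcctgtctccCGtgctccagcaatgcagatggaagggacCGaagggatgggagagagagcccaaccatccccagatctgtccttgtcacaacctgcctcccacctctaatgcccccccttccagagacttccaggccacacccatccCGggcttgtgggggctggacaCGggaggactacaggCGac
The last, chr12:4817358-4817400 on the plus strand, precedes Sf3b6, a splicing factor gene, under a peak of fold 2.79 on Gm20348.
Sf3b6: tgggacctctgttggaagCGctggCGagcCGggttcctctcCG
The shown parts hold 11 CG in 201 bases, 6 in 229 and 4 in 43. The full windows of 300 bases held 17 CG for Zfp872, 7 for Tie1 and 23 for Sf3b6, against a median of 7 and quartiles of 3 and 21 over all 31396 autosomal windows, of which 94.8% held at least 1.

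The microRNA lay on Gm4149, a pseudogene of 364 bp at chr13:75644865-75645228. Its peak, chr13:75644672-75645217, had fold 9.18 and held the whole hairpin of Mir682 at chr13:75645046-75645141 on the plus strand, and the mature microRNA at chr13:75645119-75645139. In the mature sequence the capitals mark the seed, bases 2 to 8.
Mir682 hairpin: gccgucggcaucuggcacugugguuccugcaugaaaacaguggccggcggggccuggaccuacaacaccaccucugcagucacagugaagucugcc
mmu-miR-682: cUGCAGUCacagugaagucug

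Short pseudogenes carried peaks more densely than the sequence next to them, and long ones did not. Density was taken as peak midpoints per Mb, which does not grow with the length of a span, over 6633 pseudogenes clear of protein-coding and lncRNA genes. Spans under 2 kb, the size of most mRNA copies, held 555 midpoints in 4.39 Mb. That is 127 per Mb (exact Poisson 95% interval 116 to 137), against 36.8 (33.1 to 40.7) in the next 1 kb outside genes, a ratio of 3.44. From 1 to 5 kb the density was 35.0 per Mb (33.1 to 37.0) and from 5 to 20 kb it was 36.6 (35.5 to 37.8), so the excess ended at the edge of the span at this resolution. All sequence outside genes had 33.5 per Mb (33.2 to 33.8).

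Spans of 2 to 5 kb had 59.6 midpoints per Mb (50.2 to 70.2), against 40.1 (30.6 to 51.6) in the next 1 kb. Spans of 5 kb or more had 36.5 per Mb (33.3 to 40.0), against 35.3 (25.7 to 47.4) in the next 1 kb. The share of bases under peaks moved likewise: 9.19% of the short spans were covered, against 3.96% of their 1 kb flanks, while for the long spans the shares were 4.08% and 3.94%. The contrast for short spans was also present among peaks with a −log10 q of at least 5, with 18.7 midpoints per Mb (14.9 to 23.2) in the spans and 6.04 (4.61 to 7.78) in the 1 kb flanks, a ratio of 3.09. For spans of 2 to 5 kb the order turned at that threshold, with 10.0 per Mb (6.41 to 14.9) in the spans and 13.4 (8.17 to 20.7) beside them. The intervals cover counting error only, neighbouring peaks are not independent, and base composition and uniqueness of the sequence were not measured, so their part in the result was not tested.

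**Figure D1:**
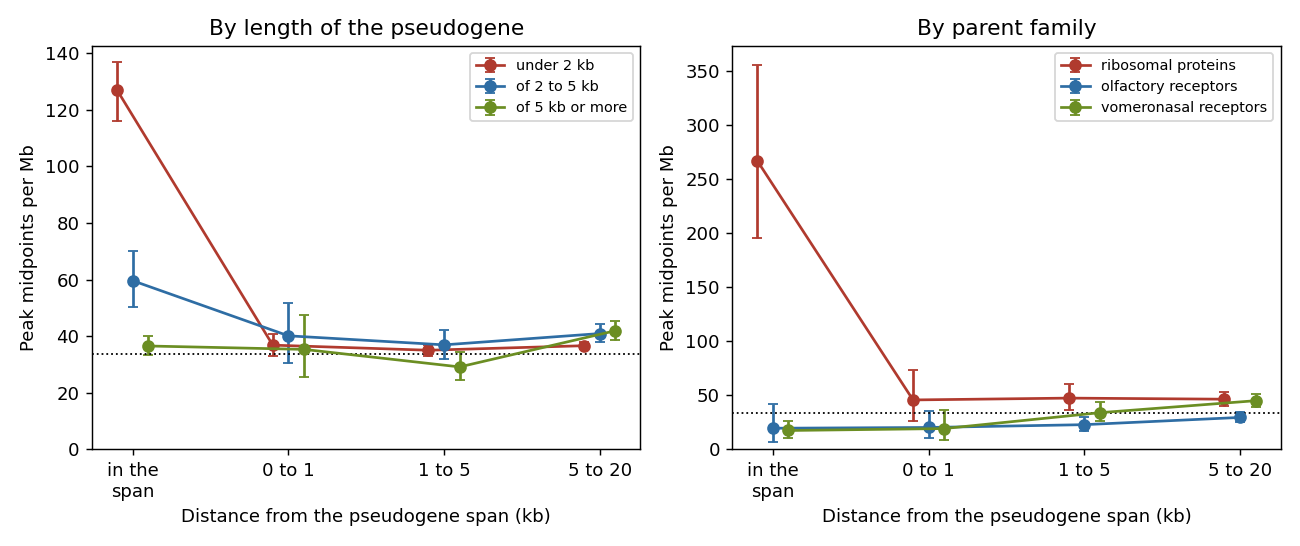
Peak midpoints per Mb (vertical axis) in pseudogene spans and at increasing distance from them outside genes (horizontal axis, kb), by span length on the left and parent family on the right. Points are densities, bars exact Poisson 95% intervals and the dotted line is the 33.5 per Mb outside all genes; spans under 2 kb stand at 127 and ribosomal protein copies at 267, above all their flanks.

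Small lncRNA genes, set beside them, had a smaller contrast. Spans under 2 kb of lncRNA genes clear of other genes held 90.6 midpoints per Mb (73.7 to 110), against 64.8 (52.1 to 79.6) in their 1 kb flanks. At a −log10 q of at least 5 these lncRNA spans had 1 midpoint, which is 0.915 per Mb (0.0232 to 5.10), below the 18.7 per Mb of the short pseudogenes.

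Counted by gene, 18.5% of the clear pseudogenes (1225 of 6633) had a peak in the span, against 42.9% of lncRNA genes (3215 of 7496) and 64.3% of protein-coding genes (13228 of 20560). Over autosomal genes of every type the share was 45.2%. Pseudogenes are short, with a median span of 942 bp among the clear ones, against 7950 bp for lncRNA and 17574 bp for protein-coding genes, so like lengths were set side by side. From 500 bp to under 1 kb the share was 13.1% (exact Clopper-Pearson 95% interval 11.8 to 14.5) of pseudogenes, 12.1% (7.97 to 17.3) of lncRNA genes and 3.07% (2.19 to 4.17) of protein-coding genes. Single-exon receptor genes are common among protein-coding genes of that length, and their part in this share was not tested. From 1 kb to under 2 kb the share was 20.7% (18.7 to 22.7) of pseudogenes, 20.8% (17.6 to 24.2) of lncRNA genes and 13% (10.9 to 15.4) of protein-coding genes. At 5 kb or more the order was the other way, with 40.1% (36.3 to 43.9) of pseudogenes, 52.8% (51.3 to 54.2) of lncRNA genes and 76.8% (76.1 to 77.4) of protein-coding genes. That class has no upper limit, so lengths were not matched in it. Its median spans were 11731 bp for pseudogenes, 13703 bp for lncRNA genes and 25942 bp for protein-coding genes.

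**Figure D2:**
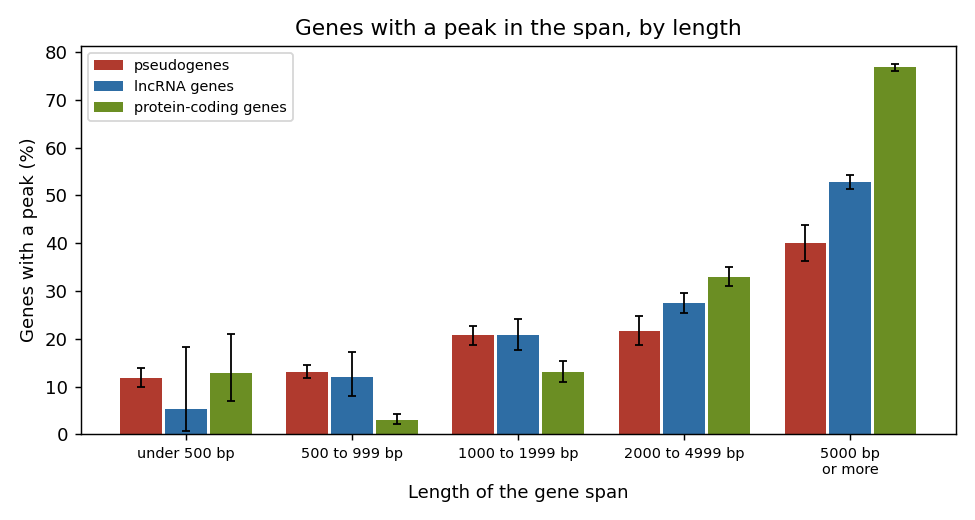
Share of genes with a peak in the span (vertical axis, %) by length of the span (horizontal axis), with exact 95% intervals as error bars. Pseudogenes stand above protein-coding genes from 500 bp to under 2 kb and below them from 2 kb on.

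Pseudogene peaks were stronger and wider than autosomal peaks at large, and nearest in fold to peaks on no gene. The fold enrichment is the authors' value for each peak. Its median was 3.76 over the pseudogene peaks (order-statistic 95% interval 3.68 to 3.83), against 3.33 over the other 104460 autosomal peaks. It was 3.29 over 7232 peaks on lncRNA genes only, 3.24 over 57235 peaks on protein-coding genes and 3.60 over 39535 peaks on no gene. Of the pseudogene peaks, 19.3% (304; 17.4 to 21.4) were among the 10.0% of autosomal peaks with the highest fold, that is above 5.43, against 10.4% of the lncRNA peaks, 3.83% of the protein-coding peaks and 18.3% (18 to 18.7) of the peaks on no gene. At a −log10 q of at least 5 stood 22.7% of the pseudogene peaks, beside 21.6% of the peaks on no gene and 11.9% of all autosomal peaks. Pseudogene peaks made up 1.48% of all autosomal peaks, 2.57% of those at a −log10 q of at least 3 and 2.83% of those at 5 or more. The share of peaks on no gene rose likewise, from 37.3% to 58.7% and 67.4%. Within the list at 5 or more, which is itself selected for high fold, 10.6% of the pseudogene peaks were in its own top 10%.

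The median width was 757 bp for pseudogene peaks and 638 bp for the others, and wide peaks meet a span more easily. Within classes of width the order of the folds was kept: peaks under 500 bp had a median fold of 3.52 on pseudogenes and 3.30 elsewhere, and peaks of 2 kb or more had 5.30 and 3.88. In the widest class 47.1% of pseudogene peaks and 24.4% of the others were in the top 10% by fold. The folds were higher on long spans than on short ones, the reverse of the order in density: the median was 3.58 for the 775 peaks on spans under 2 kb and 4.09 for the 612 on spans of 5 kb or more, with 16.1% (13.6 to 18.9) and 24.3% (21.0 to 27.9) in the top 10%.

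**Figure D3:**
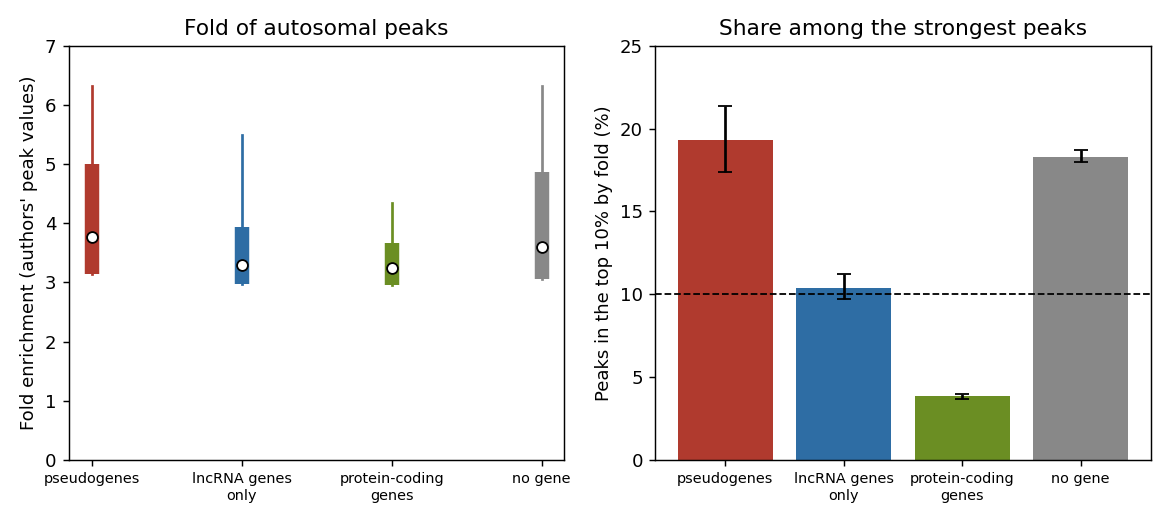
Left, fold enrichment of autosomal peaks (vertical axis) by what they overlap, with the median as a circle, the quartiles as a thick bar and the 90th percentile as the end of the thin line. Right, share of each set in the top 10% by fold (vertical axis, %) with exact 95% intervals and the 10.0% background dashed; pseudogene peaks at 19.3% and peaks on no gene at 18.3% stand above the others.

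Most pseudogene peaks lay inside a span, and these spans were long. The peak was inside the span in 860 cases (54.6%), whose median span was 12835 bp. It crossed an end in 593 (37.7%), with a median span of 1145 bp. It covered the whole pseudogene in 121 (7.69%), with a median span of 639 bp and the highest median fold of the 3 kinds, 4.52. Peaks of this last kind were also the widest, with a median of 1861 bp, against 905 bp across an end and 582 bp inside. Width was not matched here. A pair of pseudogenes shared a peak in 14 cases. The distance to the nearest protein-coding gene had a median of 28.3 kb, against 37.7 kb for peaks on no gene. At the edge of the rule, 21 members overlapped their pseudogene by under 50 bp, with a median fold of 3.81, and 30 peaks on no gene ended within 100 bp of a pseudogene, with a median of 3.57. Transcribed pseudogenes had 181 of the peaks, by largest overlap, with a median fold of 3.70, against 3.77 for the 1393 on pseudogenes of the other type.

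The strongest peaks included compact pseudogenes, several of them covered nearly end to end. The highest, of fold 15.4, lay on Gm10073, a span of 468 bp on chromosome 8 (106572965 to 106573432), of which 92.3% was covered. The next, of fold 14.6, lay wholly inside and covered 76.3% of the transcribed pseudogene Gm15772 on chromosome 5 (3236390 to 3236928), for which the gene table gives the synonym Rpl26, a ribosomal protein of the large subunit. Gm12892 on chromosome 4 (122008130 to 122009562) was covered whole at fold 12.8. Gm5835 on chromosome 1 (143093271 to 143094649) was covered to 96.5% at fold 9.93, and Gm6291 on chromosome 18 (6371352 to 6371660) was covered whole at 9.91. These 5 spans are all under 2 kb, and the symbols of the other 4 show no parent.

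A copy of Rpsa, the gene of a protein of the small ribosomal subunit that also acts as a laminin receptor, stood among the 10 highest. The peak on Rpsa-ps10 on chromosome 3, from 150072622 to 150073614, lay inside a span of 1028 bp and covered 96.6% of it at fold 10.4. The nearest protein-coding gene, Adgrl2, was 1084 kb away.

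Other peaks of the top 10 touched a pseudogene without tracing it. Gm2710 (fold 11.6), Gm18728 (10.8) and Cyp2j15-ps (10.4), a copy of a cytochrome P450 gene, have spans of 10.2, 429 and 28.7 kb, and these peaks are 535, 540 and 481 bp wide. They covered 5.26% of Gm2710 and 1.68% of Cyp2j15-ps, and all 15 peaks in Gm18728 together covered 4.62% of it. Gm13036 on chromosome 4 was covered whole at fold 11.6, but by a peak of 5453 bp of which 17.3% lay on the pseudogene. That peak lay 33.1 kb from Zfp987, a zinc-finger gene. Gm13148, in the same region of chromosome 4, was covered whole by a peak of 5089 bp at fold 8.57, which lay 7.36 kb from Zfp984. Gm15427 on chromosome 1 was covered whole at 8.60. Full coverage was found in 79 of the 1136 pseudogenes of 500 bp or more that had a member peak.

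The widest peaks reached well past their pseudogenes. The peak at Gm8587 on chromosome 12, from 88088858 to 88100813, was 11956 bp wide at fold 7.24, and 8.47% of it lay on the pseudogene. The peak at Gm46386 on chromosome 13 was 11026 bp wide at fold 8.06, and at Csnk2a3 on chromosome 1, a pseudogene of a casein kinase gene, it was 9228 bp wide at fold 6.23. At Gm9689 on chromosome 7 a peak of 11285 bp at fold 6.28 matched the span, with 99.4% of the pseudogene covered and 96.7% of the peak on it. That peak lay 34.9 kb from Zscan4d. At Gm46860 on chromosome 4 a peak of 8722 bp at fold 6.24 covered 86.6% of the span.

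Pseudogenes named as copies of ribosomal protein genes carried peaks more often than other pseudogenes of their length. Families were read from symbols, and 5252 of the 6633 clear pseudogenes have Gm or LOC numbers that show no parent. Ribosomal protein copies may therefore be among the other pseudogenes here. Of the 286 pseudogenes with the symbol of a ribosomal protein gene, 58 had a member peak. Among the 195 clear of other genes, 30.3% (59; 23.9 to 37.2) had a peak of any kind, counting peaks that run on into a neighbouring gene, beside 18.5% of all clear pseudogenes. From 500 bp to under 1 kb the share was 29.7% (35 of 118; 21.6 to 38.8) for ribosomal protein copies, against 12.3% (285 of 2322; 11 to 13.7) for all other pseudogenes. Under 500 bp it was 25.4% (15 of 59; 15.0 to 38.4), against 11% (116 of 1052; 9.20 to 13.1). Their density was 267 midpoints per Mb (196 to 356) in the spans, against 45.6 (26.5 to 72.9) in the next 1 kb and 46.3 (40.1 to 53.1) at 5 to 20 kb. At a −log10 q of at least 5 it was 81.3 (44.4 to 136) in the spans, against 8.04 (1.66 to 23.5) in the next 1 kb, from 14 and 3 midpoints.

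The copies of Rpsa, of Rpl19 and of Rpl31 differed among themselves in whether they had a peak and in its fold. Of the 12 Rpsa copies, 6 had a peak, with folds of 10.4 at Rpsa-ps10, 4.77 at Rpsa-ps9, 4.40 at Rpsa-ps4, 3.88 at Rpsa-ps2, 3.02 at Rpsa-ps12 and 2.99 at Rpsa-ps6. Of the 11 Rpl19 copies, 5 had a member peak, with 8.68 at Rpl19-ps11, 7.77 at Rpl19-ps1, 4.30 at Rpl19-ps10, 4.26 at Rpl19-ps4 and 3.29 at Rpl19-ps3. Both genes thus have copies above and copies below the top 10% limit of 5.43. Of the peak at Rpl19-ps11, 40.8% lay on the pseudogene, and the peak at Rpl19-ps1 was 3222 bp wide over a span of 702 bp. Of the 23 Rpl31 copies, 5 had one, with 8.92 at Rpl31-ps25, 7.44 at Rpl31-ps8, 3.90 at Rpl31-ps10, 3.31 at Rpl31-ps4 and 3.03 at Rpl31-ps23. The span of Rpl31-ps25 is 41903 bp and held 3 peaks, so its highest peak need not lie on the copied sequence. The other parents with at least 10 autosomal copies were Rps19 and Rpl17 (2 copies with a member peak each, of 13 and 10), Rpl7a (2 of 11), and Rpl21, Rpl23a and Rps2 (1 each, of 14, 12 and 11). Among clear copies the share with a peak was 50% (21.1 to 78.9) for Rpsa and 55.6% (21.2 to 86.3) for Rpl19. For Rpl31 it was 31.2% (11 to 58.7). Each of these intervals includes the 30.3% of all clear ribosomal protein copies, so the shares do not set these parents apart.

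The shares of small groups of other housekeeping copies had wide intervals, and most of these include the 18.5% of all clear pseudogenes. Of 14 clear pseudogenes of respiratory chain genes, 8 had a peak (57.1%; 28.9 to 82.3, an interval above that share), with 6.03 at Cox6c2, 4.86 at Atp5l-ps1 and 4.76 at Atp5k-ps2, after subunit genes of cytochrome c oxidase and ATP synthase. Of 14 copies of translation factor genes, 6 had a peak (42.9%; 17.7 to 71.1), with 5.36 at Eef1a1-ps1, an elongation factor copy, 4.27 at Eif4a3l2 and 4.05 at Eef2-ps2, another elongation factor copy. Ubiquitin and proteasome copies had a peak in 3 of 6 cases (interval 11.8 to 88.2%), among them Ubb-ps with 5.93 and Psmb6-ps2 with 2.80. In contrast, 0 of 10 clear chaperone copies had one (interval up to 30.8%), and glycolytic enzyme copies had one in 2 of 14, with 3.76 at Pgk1-rs7 and 2.95 at Ldhb-ps.

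The cytoskeleton and histone groups had a peak in 1 of 5 clear copies each, and the RNA binding group in 1 of 4. The proliferation and pluripotency group, which holds the Tpt1 copies, had a peak in 1 of 13 (7.69%; 0.195 to 36.0). The high mobility group had one in 2 of 6 and the zinc fingers in 2 of 10. The interval of each of these groups includes the 18.5% of all clear pseudogenes. Single members of the remaining small groups were Tpt1-ps3 at 8.41, after the translationally controlled tumour protein gene, and H1f11-ps at 6.47, a linker histone copy covered whole. Of these peaks, 47.3% and 44.5% lay on their pseudogenes. Srsf3-ps, after a splicing factor gene, had 4.75 and Tubb3-ps1, after a neuronal tubulin gene, had 3.60. The high mobility group copies Hmgb1-ps4 and Hmgb1l had 4.03 and 3.43. Zfp862-ps and Zfp683, zinc-finger genes typed as pseudogenes, had 4.43 and 3.21. The 4 pseudogenes of natural killer receptors had 0 peaks.

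**Figure D4:**
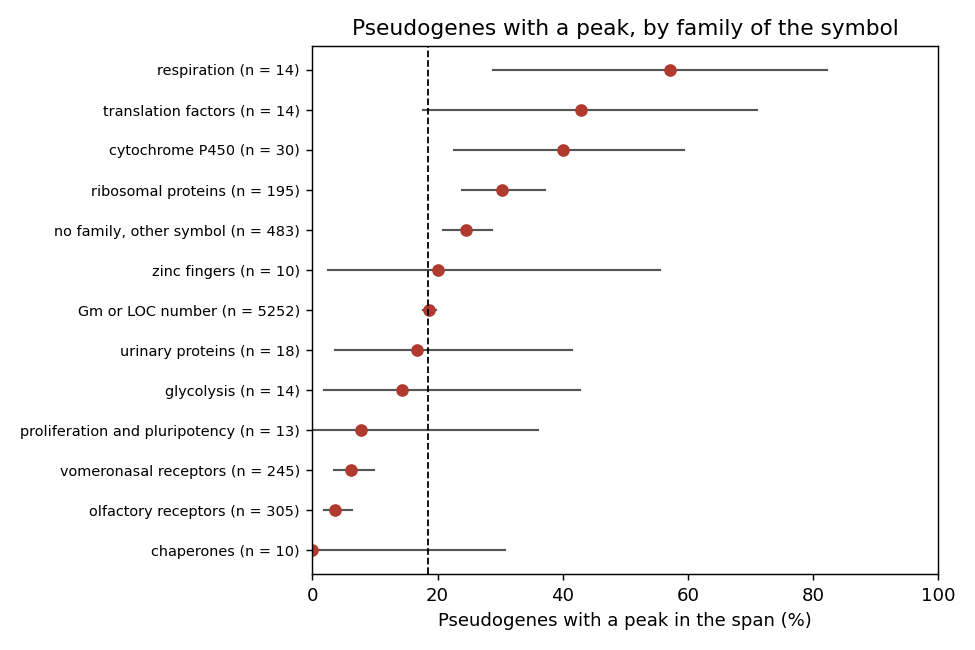
Share of clear pseudogenes with a peak in the span (horizontal axis, %) by family of the symbol (vertical axis, families with at least 10 such pseudogenes), with exact 95% intervals as lines and the 18.5% of all clear pseudogenes dashed. Ribosomal protein copies lie right of that line at 30.3%, and olfactory and vomeronasal receptor pseudogenes lie left of it at 3.61% and 6.12%.

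Pseudogenes of chemosensory receptors, which arise by duplication in large gene clusters, had few peaks in the full list. A peak was found in 3.61% (11 of 305; 1.81 to 6.36) of olfactory receptor pseudogenes. From 500 bp to under 1 kb, the length of a receptor's coding exon, the share was 1.38% (3 of 218; 0.285 to 3.97), against 14.3% (12.8 to 15.8) of all other pseudogenes. Density in their spans was 19.4 midpoints per Mb (7.11 to 42.2), against 20.1 (10.4 to 35.0) in the next 1 kb, so both were low and the span did not stand out. The highest folds were 6.47 at Olfr1372-ps1, 6.05 at Olfr817-ps1 and 5.55 at Olfr1544-ps1. The last 2 lie on chromosome 10 within the same stretch, and the peak at Olfr1544-ps1 covers that pseudogene whole.

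Vomeronasal receptor pseudogenes had a peak in 6.12% (15 of 245; 3.47 to 9.90) of clear cases. Their density was 17.3 midpoints per Mb (10.7 to 26.4) in the spans and 19.1 (8.73 to 36.2) in the next 1 kb. Both were below the 44.9 (39.1 to 51.3) at 5 to 20 kb. From 500 bp to under 1 kb the share was 1.71% (0.208 to 6.04), against 13.7% (12.3 to 15.2) of all other pseudogenes. At 5 kb or more it was 24.5% (13.3 to 38.9), against 41.3% (37.4 to 45.3). Among peaks with a −log10 q of at least 5 the unmatched shares were close. There 4.08% of vomeronasal receptor pseudogenes had a peak, against 4.31% of all clear pseudogenes, and lengths were not matched. Density at that threshold was 9.05 per Mb (4.52 to 16.2) in the spans and 6.37 (1.31 to 18.6) in the next 1 kb. It was 18.1 (14.5 to 22.3) at 5 to 20 kb. In the full list, the highest peaks in the vomeronasal receptor pseudogenes that had one were strong. The median of the highest folds of the 21 with a member peak was 5.66. It was 3.77 over all pseudogenes with one and 3.89 over the ribosomal protein copies. These are maxima per pseudogene, and they are not matched for the number of peaks or for length, which were larger in vomeronasal spans with peaks. The highest were 8.90 at Vmn2r-ps54, 8.41 at Vmn2r127 and 8.25 at Vmn2r-ps21, all in spans of 19.1 kb or more. Vmn2r-ps11 on chromosome 3 and Vmn2r-ps23 on chromosome 5 had 10 peaks each, in spans of 212 and 153 kb. The most peaks, 15, were in Gm18728 on chromosome 1, and these 3 spans were covered to 4.58%, 5.28% and 4.62%.

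Cytochrome P450 pseudogenes, duplicates with long spans (median 9169 bp), had a peak in 12 of 30 clear cases (40.0%; 22.7 to 59.4), beside 40.1% of all clear pseudogenes of 5 kb or more, with 7.99 at Cyp2d34-ps and 6.58 at Cyp3a58-ps after Cyp2j15-ps. Their density was 46.9 per Mb (29.0 to 71.6), beside 36.5 (33.3 to 40.0) in all clear pseudogene spans of 5 kb or more. Major urinary protein pseudogenes had a member peak in 4 of 20, with 9.42 at Mup-ps26, 7.48 at Mup-ps1 and 5.69 at Mup-ps29. The spans of Mup-ps26 and Mup-ps29 are 202 bp, and 12.7% and 14.1% of their peaks lay on them.

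Copies carried peaks at shares with overlapping intervals whether or not the parent gene had a peak. A protein-coding parent could be read from the symbol for 648 pseudogenes of 317 parents, 446 of them clear of other genes. Of these, 33.5% (83 of 248; 27.6 to 39.7) had a peak where the parent's span had one, against 28.3% (56 of 198; 22.1 to 35.1) where it had none. The copies in these groups had median spans of 968 and 695 bp, and longer pseudogenes more often had a peak. They came from 141 and 101 parents, and the intervals do not allow for shared parents. The background share of protein-coding genes with a peak was 64.3%. In 86 pairs with a peak at both, the median fold was 4.07 at the pseudogene and 3.86 in the parent, and the pseudogene was higher in 50. Spearman's rho between them was -0.13, as a description over 66 parents that share copies and library. These folds are the highest in each span, and they are not matched for the number of peaks or for length. A parent's highest peak can lie anywhere in its span and need not lie on the copied sequence. The peaks on copies of Rpsa ranged from 2.99 to 10.4, against 12.2 in Rpsa itself. Eef1a1-ps1 had 5.36 and Eef1a1-ps2 had no peak, against 10.3 in Eef1a1. How reads with several matches in the genome were treated is not given in the sources used here, so reads of near-identical copies cannot be told apart, and these values are uncertain to that extent.

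**Figure D5:**
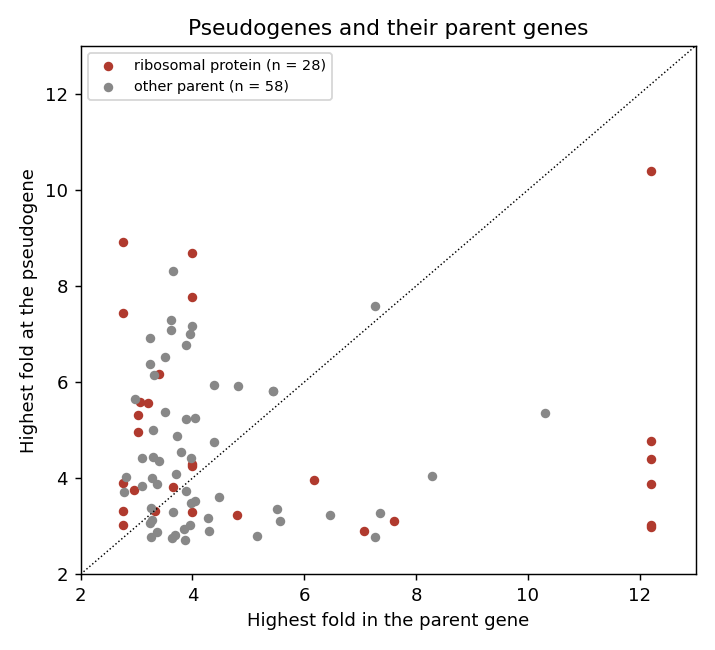
Highest fold of a member peak at the pseudogene (vertical axis) against the highest fold in the span of its parent gene (horizontal axis) for 86 pairs, 28 of them ribosomal protein copies in red. The dotted line marks equal values; the column of red points at 12.2 is the copies of Rpsa.

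Of 6 pseudogenes named after Dnmt, Dppa and Nanog genes, 2 had a member peak, and both had a highest fold below the pseudogene median of 3.76. With so few, the share cannot be set apart from the 18.5% of all clear pseudogenes. Dnmt3b-ps1 is the table's name for the gene also called Dnmt3c, which in mouse encodes an active methyltransferase of male germ cells that silences young transposons. It is therefore a member by its annotation and not by its function. It spans chromosome 2 from 153706484 to 153730013 and had 2 peaks, one of 274 bp at fold 3.18 (153716820 to 153717093) and one of 2296 bp at fold 2.95 (153726355 to 153728650), which together covered 10.9% of the span. Dnmt3a-ps1 had a peak of fold 3.36. Dnmt3l-ps1 had no member peak and a single peak of 2.75 that also touched another gene. Nanog-ps2, Dppa5b and Dppa5c, copies of pluripotency genes, had no peak.

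Along the genome, the share of clear pseudogenes with a peak ran from 10.3% (34 of 331; 7.22 to 14.1) on chromosome 14 to 27.5% (41 of 149; 20.5 to 35.4) on chromosome 19. Members made up 0.888% of the peaks on chromosome 14 and 2.20% on chromosome 12. The 1 Mb windows with the most members were 103 to 104 Mb on chromosome 1, where all 15 lay in Gm18728 and made up 60% of the window's 25 peaks, and 173 to 174 Mb on chromosome 2, where 9 of 15 lay in Ppp4r1l-ps. The next were 109 to 110 Mb on chromosome 5, where 10 of 12 lay in Vmn2r-ps23, and 34 to 35 Mb on chromosome 17, where 6 of 12 lay in Tnxa, a partial copy of the tenascin gene Tnxb. In these 4 windows 1 pseudogene held at least 6 of the members. The next window, 11 to 12 Mb on chromosome 7, differed: its 11 members lay on 10 pseudogenes, and the leading one, Gm3816, held 2.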

How the data were processed

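The values start from the broad peaks the authors deposited. MACS2 2.1.0, Bowtie2 2.5.0, deepTools 3.5.1, SAMtools 1.16.1, bedtools 2.27.1 and Trim Galore are listed in the submitters' processing notes, as is build mm10; no source used here gives their settings or order. Each deposited peak has a fold enrichment (a ratio over the caller's background), a −log10 p, a −log10 q and a score. The lowest −log10 q was 1.01. Whether the DNA before capture served as the caller's control is not stated, which bears on folds at near-identical copies.

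Genes came from a table of GRCm38.p6, the build of mm10, which gives spans and types but no exons or strand. From it, 328 autosomal genes (94 pseudogenes) that start in the opening 3 Mb gap were left out, since their positions are those of scaffolds; this exclusion, planned as an alternative, became the main choice. Overlaps, tested on simulated intervals, and exact intervals were computed with Python 3.11.15, pandas 2.3.3 and scipy 1.17.1. A clear pseudogene shares no base with a protein-coding or lncRNA span. Families were read from symbol stems. Pseudogenes were named if under the 10 highest or 5 widest peaks, among the 5 most covered of 500 bp or more, the 3 highest of each family or the 3 with the most peaks, or if their symbols start with Nanog, Pou5f1, Dppa, Dnmt or Tet. A pseudogene that this rule names is not reported here. Parents with at least 10 copies, Gm4149, Gm12859 and Gm20348, the pseudogenes leading a window, Rpsa and Eef1a1 were added after values were seen. The members and lists were chosen with earlier results of these data known. The alternatives changed the peak threshold, the overlap, merging of peaks, distance to other genes, the types, the symbols and the ranking.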

Additional observations from a re-analysis of the deposited data

Results flagged for a closer look

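Peaks outside the autosomal comparison also fell on pseudogenes. By the same rule, 73 of the 1967 peaks on the X chromosome (3.71%) lay on pseudogenes, beside 1.48% of the autosomal peaks. Their median fold was 3.69 and their highest 10.1. Such a peak was found on 54 of 1004 X pseudogenes (5.38%), beside 1267 of 9225 on the autosomes. On the Y chromosome 13 of 394 peaks (3.3%) lay on pseudogenes, with a median fold of 3.98, on 9 of 101 pseudogenes (8.91%). On the autosomes, 4 peaks lay on pseudogenes of antigen receptor segments or non-coding RNAs, types that the rule leaves out, with a median fold of 5.70, on 4 of 177 such genes. These are signals in data that the report's comparisons do not use, and the library of DNA before capture was not analysed here.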

How the results depend on the processing

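The peak threshold moved nearly every value. At a −log10 q of at least 3 there were 651 pseudogene peaks with a median fold of 5.30, 7.66% of clear pseudogenes had a peak, density was 23.6 per Mb and 11.4% of the peaks were in the top 10% by fold of that stricter list. At a −log10 q of at least 5 the values were 358 peaks, 6.14, 4.31%, 12 per Mb and 10.6%. A peak was then carried by 8.21% of ribosomal protein, 1.31% of olfactory receptor and 4.08% of vomeronasal receptor pseudogenes. Since a q threshold itself selects for high fold, these ranks within stricter lists do not test the rank in the full list. With the peak midpoint in the span, 14.3% of all clear pseudogenes had a peak. The shares were 22.6% of ribosomal protein, 1.64% of olfactory receptor and 4.9% of vomeronasal receptor pseudogenes. Pseudogenes more than 5 kb from other genes had 55.7 midpoints per Mb. Without Gm and LOC numbers there were 383 peaks with a median fold of 3.89 and 21.9% in the top 10%. With spans under 2 kb only, an alternative chosen after seeing the data, there were 782 peaks, a median fold of 3.57, 16.0% in the top 10%, 15.2% of pseudogenes with a peak and 127 midpoints per Mb. Merging peaks within 1 kb, leaving out transcribed_pseudogene and keeping genes at scaffold positions, the last also chosen after seeing the data, left the median fold, the top 10% share, the share of pseudogenes with a peak and the density close to their values; family shares were not recomputed there. Ranking by q was run for the top 10% share alone, which was 19.7%. No paired analysis was possible because there is 1 captured library and no test.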
